A study of Mus musculus with 75 samples.

Results

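CTCF binding was compared between cells in late G1 and asynchronous cells, using every CTCF peak deposited for each group. The late-G1 list held 33499 peaks and the asynchronous list 33166, together 66665 of the 246850 CTCF and Rad21 peaks of the series. A peak was called shared if it covered at least 1 bp of a peak in the other list, and late-G1-only or asynchronous-only if it did not. CTCF is a zinc-finger protein that binds a long DNA motif in one orientation and marks the borders of chromatin loops and domains. Cohesin, of which Rad21 is a subunit, is a ring complex that extrudes DNA loops and accumulates where CTCF is bound in the convergent orientation. Both proteins are displaced to different degrees from mitotic chromosomes and return as cells enter G1. An asynchronous culture normally mixes cells of all cell cycle phases, while late-G1 cells come from a single window after mitosis.

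The cells were G1E-ER4, a subline of the GATA1-null mouse proerythroblast line G1E (an immature red cell precursor, strain 129). They were used uninduced, and all groups share this background. For late G1, nocodazole at 200 ng/ml arrested the cells in pro-metaphase over 7 to 8.5 h, and they were then released for 240 min and purified by FACS. Earlier stages came from release for 0 min (pro-metaphase), 25 min (ana/telophase), 60 min (early G1) and 120 min (mid G1), and the labels assign the asynchronous cells to no stage. The treatment text of the asynchronous samples repeats the nocodazole protocol, so whether those cells were untreated and unsorted is not stated. Of the 75 samples of the series, 4 gave the lists compared here, 2 for late G1 and 2 for asynchronous cells, and no label says whether the 2 came from separate cultures. Each list pools its samples and was downsampled by the authors, which leaves no replicate spread to measure and no p-value, and the reads behind each list are unknown. Percentages carry exact 95% binomial (Clopper-Pearson) intervals, given after the value, which cover counting error over peaks only. A peak missing from a list fell below the authors' calling threshold and need not be an unbound site.

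The CTCF maps of late-G1 and asynchronous cells were largely the same sites. In late G1, 30509 peaks (91.1%, 90.8 to 91.4) had a counterpart in asynchronous cells and 2990 (8.93%, 8.62 to 9.24) did not. In asynchronous cells, 30396 peaks (91.6%, 91.3 to 91.9) had a counterpart in late G1 and 2770 (8.35%, 8.06 to 8.65) did not. Which class was larger depended on the threshold, since limiting both lists to a fold enrichment of at least 10 left 2081 late-G1-only and 3404 asynchronous-only peaks. The limit kept 26764 late-G1 and 28002 asynchronous peaks, and fold values of the 2 lists have no common scale. It also made a peak unshared if its counterpart was below 10. Looked up in the whole other list, 624 late-G1 and 860 asynchronous peaks above the limit had no counterpart. Nearly every match was unambiguous. Only 17 late-G1 peaks touched 2 asynchronous peaks, while 128 asynchronous peaks touched 2 late-G1 peaks and 1 touched 3.

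The boundary between shared and unshared peaks was sharp in position. The median shared peak overlapped its counterpart by 281 bp in either list, and just 1 late-G1 peak and 3 asynchronous peaks were shared by 50 bp or less. Just outside the rule, 33 late-G1-only and 124 asynchronous-only peaks lay within 250 bp of a peak of the other list. Those 124 were among the weakest of the asynchronous list, with a median fold percentile of 2.58. The fold percentile is the rank of a peak's deposited fold enrichment within its own list, where 100 is the strongest. At the other end, 1752 late-G1-only and 1663 asynchronous-only peaks were more than 10000 bp from the other list's nearest peak. The median distance was 14130 bp for late-G1-only peaks and 15312 bp for asynchronous-only peaks.

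Peaks found in one list were weak and narrow. The median fold percentile of late-G1-only peaks was 11.0, with the middle 50% between 5.21 and 18.4, against 54.5 for shared late-G1 peaks. For asynchronous-only peaks the median was 10.2, with the middle 50% between 4.74 and 17.2, against 54.2 for shared asynchronous peaks. In fold enrichment, the authors' own value for each peak, the late-G1-only median was 8.37 and the shared late-G1 median 19.5. The asynchronous-only median was 8.77 and the shared asynchronous median 23.5. Fold values of separately called lists have no common scale and are set side by side only within a list.

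Width followed strength. Late-G1-only peaks had a median width of 179 bp and shared late-G1 peaks 293 bp. Asynchronous-only peaks had a median width of 187 bp and shared asynchronous peaks 320 bp. The ranges overlapped, since the widest late-G1-only peak reached 472 bp and the widest asynchronous-only peak 444 bp, both above the shared medians. The widest shared peaks reached 1321 bp in late G1 and 1509 bp in asynchronous cells.

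**Figure D1:**
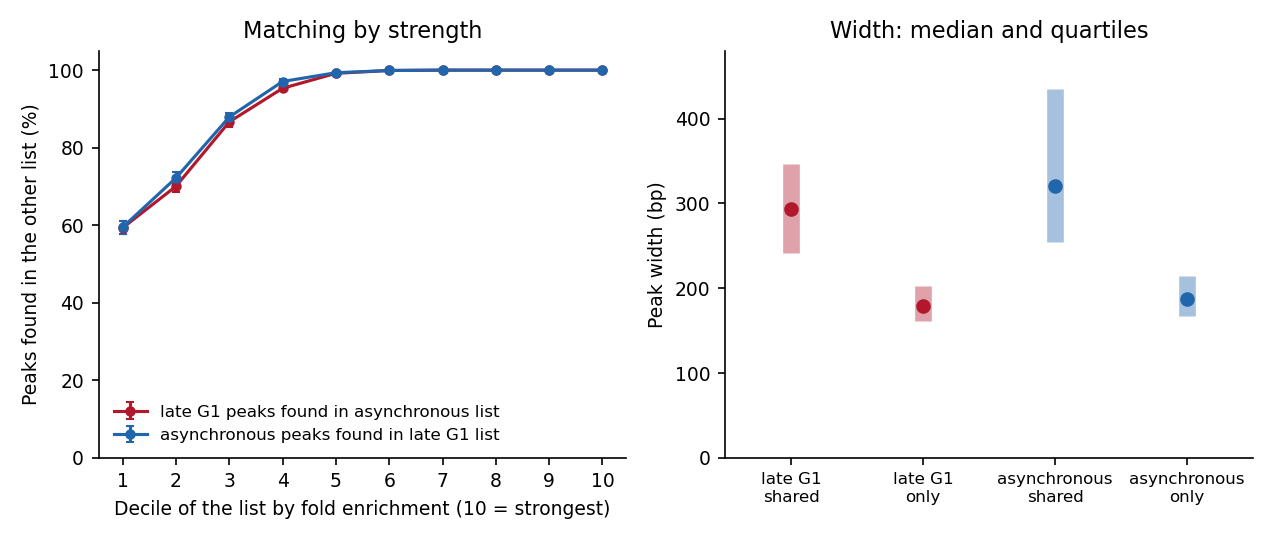
Left, percentage of CTCF peaks of each list found in the other list by decile of fold enrichment (10 = strongest), with exact 95% intervals; right, peak width in bp by class, with points for medians and bars from the lower to the upper quartile. Matching rises from 59.3% and 59.5% in decile 1 to 100% from decile 7 on, and unshared peaks are narrower, with medians of 179 and 187 bp.

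Divided into 10 deciles by fold enrichment, the 2 lists lost peaks in nearly the same way. In decile 1, the weakest, 59.3% of late-G1 peaks and 59.5% of asynchronous peaks were shared. The shares rose to 70.0% and 72.2% in decile 2, 86.7% and 87.9% in decile 3, 95.3% and 97.1% in decile 4 and 99.2% and 99.3% in decile 5. From decile 7 upward every peak of either list had a counterpart, for example all 3368 late-G1 peaks and all 3320 asynchronous peaks of decile 10. The 4 strongest deciles of either list thus held no unshared peak. Of the unshared peaks, 1331 late-G1-only peaks (44.5%) and 1330 asynchronous-only peaks (48.0%) were in decile 1.

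The strongest unshared peaks reached the middle of their lists. In late G1, the peaks at chr9:26857154-26857415, chr13:97177025-97177268 and chr2:118592443-118592690 (genome build mm9) shared the highest value, a fold enrichment of 18.4 and a fold percentile of 51.2. All 3 were also called in early and mid G1, none in pro-metaphase or ana/telophase, and all 3 lay on a late-G1 loop anchor. The peaks on chromosomes 13 and 2 carried late-G1 Rad21, whereas the one on chromosome 9 carried none. The next, chr13:16077687-16077933, had a fold enrichment of 17.8 and carried Rad21 in mid G1, late G1 and asynchronous cells, although asynchronous cells had no CTCF peak within 34563 bp. The fifth, chr8:122335919-122336160, had a fold enrichment of 17.6 and late-G1 Rad21.

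The strongest asynchronous-only peaks differed in Rad21 and in earlier stages. The highest, chr7:4398805-4399099, had a fold enrichment of 25.4 and a percentile of 57.9 and was called in ana/telophase, early G1 and mid G1. The peaks chr2:151822036-151822373 and chr9:109536123-109536435 had a fold enrichment of 22.2 and were called in all 4 earlier stages, pro-metaphase included. So was chr3:141563393-141563665, at 19.7, and chr10:30450655-30450906, also at 19.7, was called in all but pro-metaphase. None of these 5 carried a Rad21 peak of mid G1, late G1 or asynchronous cells. Those on chromosomes 7, 2 and 10 lay on a late-G1 loop anchor. All 5 were thus present in early and mid G1 and in asynchronous cells but absent from the late-G1 list.

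The widest unshared peaks had modest strength. In late G1 these were chrX:156065266-156065737, 472 bp wide at a fold enrichment of 12.7 and with Rad21 in mid G1, late G1 and asynchronous cells, and chr2:103138361-103138707, 347 bp wide at 7.83. In asynchronous cells they were chr15:100978975-100979418, 444 bp wide at 14.1, and chrX:132136164-132136561, 398 bp wide at 14.7. Both asynchronous peaks were called in every earlier stage and carried no Rad21.

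Most unshared peaks had been called at an earlier stage after mitosis. Over the whole lists, 97.9% of late-G1 and 98.5% of asynchronous peaks were in at least 1 of the 4 earlier CTCF lists. For late-G1-only peaks the share was 79.6% (78.1 to 81.0), or 2379 peaks, and for asynchronous-only peaks 86.4% (85.1 to 87.7), or 2394 peaks. Thus 611 late-G1-only peaks (20.4%) and 376 asynchronous-only peaks (13.6%) were in no other CTCF list. Their median fold percentiles, 7.23 and 5.66, were below those of the unshared peaks as a whole. The strongest of them were chr8:18817890-18818106 in late G1, at a fold enrichment of 13.3, and chr2:173412198-173412516 in asynchronous cells, at 17.8. The former lay 68098 bp from the nearest asynchronous CTCF peak and yet carried a Rad21 peak in asynchronous cells. The same held for the next 2 late-G1-only peaks of this kind, chr11:53315937-53316135 and chr2:52158982-52159189, both at a fold enrichment of 12.7.

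The stages that held them differed between the groups. Late-G1-only peaks became more frequent as the cell cycle advanced: the pro-metaphase list held 0.100% of them (3 peaks), ana/telophase 24.5%, early G1 41.7% and mid G1 69.9%. The whole late-G1 list stood at 33.7%, 82.9%, 91.8% and 96%. These earlier lists differed in length, with 11604, 33127, 33815 and 36009 peaks in the same order. Asynchronous-only peaks ran otherwise: the pro-metaphase list held 7.22% (200 peaks), ana/telophase 66.4%, early G1 57.2% and mid G1 57.4%. The whole asynchronous list stood at 34.6%, 86.7%, 93.5% and 95.1%. In ana/telophase the interval of asynchronous-only peaks, 64.6 to 68.2%, lay far above that of late-G1-only peaks, 23.0 to 26.1%. In mid G1 the order was the opposite, with 68.2 to 71.5% for late-G1-only and 55.5 to 59.3% for asynchronous-only peaks. Both classes stayed below their whole list at every stage. The pro-metaphase values depended on the overlap rule: with at least 50% of both peaks covered, 12.8% of late-G1-only and 19.0% of asynchronous-only peaks were in that list.

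**Figure D2:**
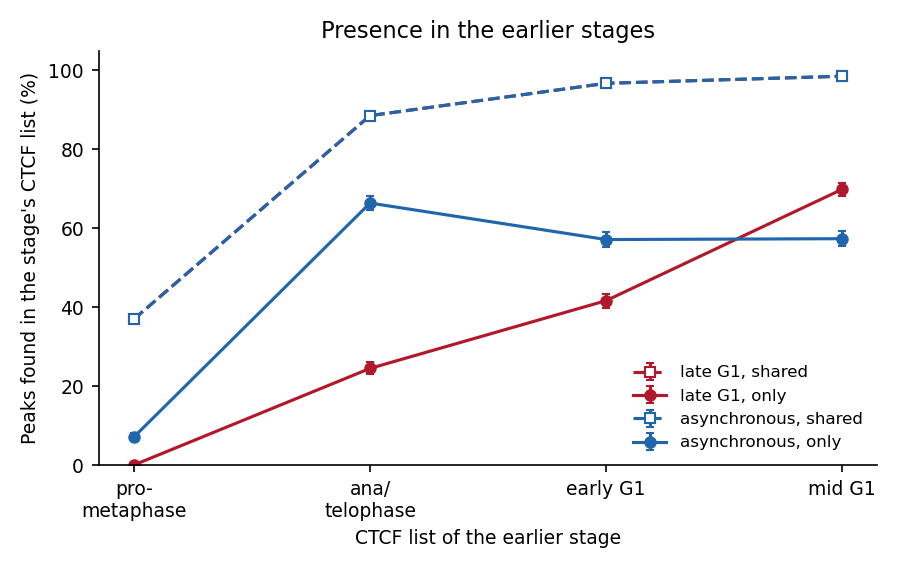
Percentage of shared, late-G1-only and asynchronous-only CTCF peaks that overlapped a CTCF peak of each earlier stage, with exact 95% intervals; the lines of the 2 shared classes coincide. Late-G1-only peaks climb from 0.100% in pro-metaphase to 69.9% in mid G1, whereas asynchronous-only peaks reach their highest share, 66.4%, in ana/telophase.

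The order of stages could also be read per peak. Among late-G1-only peaks the commonest pattern was mid G1 alone, with 892 peaks (29.8%), then early and mid G1 with 664 (22.2%) and ana/telophase, early and mid G1 with 406 (13.6%). Just 2 late-G1-only peaks (0.0669%) were in all 4 earlier lists, chr3:110164933-110165083 and chr16:40582333-40582516, with fold enrichments of 8.11 and 6.03. Among asynchronous-only peaks the commonest pattern was ana/telophase, early G1 and mid G1 with 820 peaks (29.6%), and 353 peaks (12.7%) were in ana/telophase alone. All 4 earlier stages held 103 asynchronous-only peaks (3.72%), whose median fold percentile of 21.6 was above that of the class. Persistence across lists went with strength in this class, from a median percentile of 5.66 for peaks in no earlier list, through 7.52 for 1 list, 10.2 for 2 and 15.1 for 3, to 21.6 for 4.

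The 200 asynchronous-only peaks present in pro-metaphase were sites where CTCF was called on chromosomes of arrested mitotic cells. Their median fold percentile was 17.7 and their median width 211 bp. In ana/telophase 98.5% of them were called, in early G1 80.0% and in mid G1 54.5%. Presence in pro-metaphase and absence from late G1 chose these peaks, so the fall between the 2 is set by the choice and is no result.

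Cohesin also separated the 2 classes of unshared peaks. A late-G1 Rad21 peak overlapped 53.7% of all late-G1 CTCF peaks, 56.3% (55.8 to 56.9) of the shared ones and 27.2% (25.6 to 28.8) of the late-G1-only ones, or 813 peaks. An asynchronous Rad21 peak overlapped 39.4% of all asynchronous CTCF peaks, 42.9% of the shared ones and 1.34% (0.942 to 1.84) of the asynchronous-only ones, or 37 peaks. Rad21 was thus called at a minority of late-G1-only sites and at very few asynchronous-only sites.

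The order was the same with either Rad21 list. Late-G1 Rad21 covered 51.9% of the asynchronous CTCF list but 2.64% (2.07 to 3.30) of asynchronous-only peaks. Asynchronous Rad21 covered 39.8% of the late-G1 CTCF list and 8.63% (7.65 to 9.69) of late-G1-only peaks. Mid-G1 Rad21 overlapped 17.3% of late-G1-only and 1.77% of asynchronous-only peaks, beside 45.2% and 44.1% of the whole lists. Earlier Rad21 lists were short and met few unshared peaks of either kind. Early-G1 Rad21, at 25.7% of either whole list, overlapped 1.77% of late-G1-only and 0.181% of asynchronous-only peaks. Ana/telophase Rad21, at 21.1% and 21.3% of the whole lists, overlapped 1.00% and 0.758%, and pro-metaphase Rad21, at 1.4% and 1.41%, overlapped 1 late-G1-only and 0 asynchronous-only peaks. The late-G1 Rad21 list was longer, with 18958 peaks against 13625 in asynchronous cells. When both were limited to their 13625 strongest peaks, the shares with late-G1 Rad21 were 13.7% for late-G1-only and 0.903% for asynchronous-only peaks.

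The size of the asynchronous-only value depended on the matching rule and on the fold limit. With at least 50% of both peaks required to overlap, 10.1% of asynchronous-only peaks carried asynchronous Rad21, and with both CTCF lists limited to a fold enrichment of at least 10 the share was 6.14%. The late-G1-only share stayed higher under either setting, at 15.8% and 20.1% with the same Rad21 list and at 33.5% and 43.4% with late-G1 Rad21. Both settings also count as unshared some peaks that share 1 bp with the other list. For peaks with a fold enrichment of at least 10 looked up in the whole other list, the asynchronous-only share was 1.28% (11 of 860 peaks). This is close to the 1.34% of the main setting.

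Read at matched CTCF rank, the classes still differed. In decile 1 of the late-G1 list, late-G1 Rad21 overlapped 19.2% of late-G1-only and 10.3% of shared peaks. In decile 3 the shares were 39.7% and 24.0%, and in decile 4 they were 56.1% (87 of 155 peaks) and 36.0%. In deciles 1 to 5 of the late-G1 list an unshared peak thus carried late-G1 Rad21 more often than a shared one, although in decile 5, with 28 unshared peaks, the interval was wide (51.3 to 86.8%). With asynchronous Rad21 the same 2 classes were close, at 5.86% and 5.51% in decile 1 and at 12.8% each in decile 3. The asynchronous list gave the reverse order. Asynchronous Rad21 overlapped 1.13% of asynchronous-only and 12.2% of shared peaks in its decile 1, 1.99% and 15.6% in decile 2, and 0.973% and 18.3% in decile 3. In decile 4 it was 0 of 98 asynchronous-only peaks, which allows up to 3.69%, against 23.5% of shared peaks. The share of shared peaks with Rad21 rose with CTCF rank in either list, while that of asynchronous-only peaks was 1.99% or below in each of deciles 1 to 5. Late-G1 Rad21 gave 3.31% of asynchronous-only and 27.3% of shared asynchronous peaks in decile 1.

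**Figure D3:**
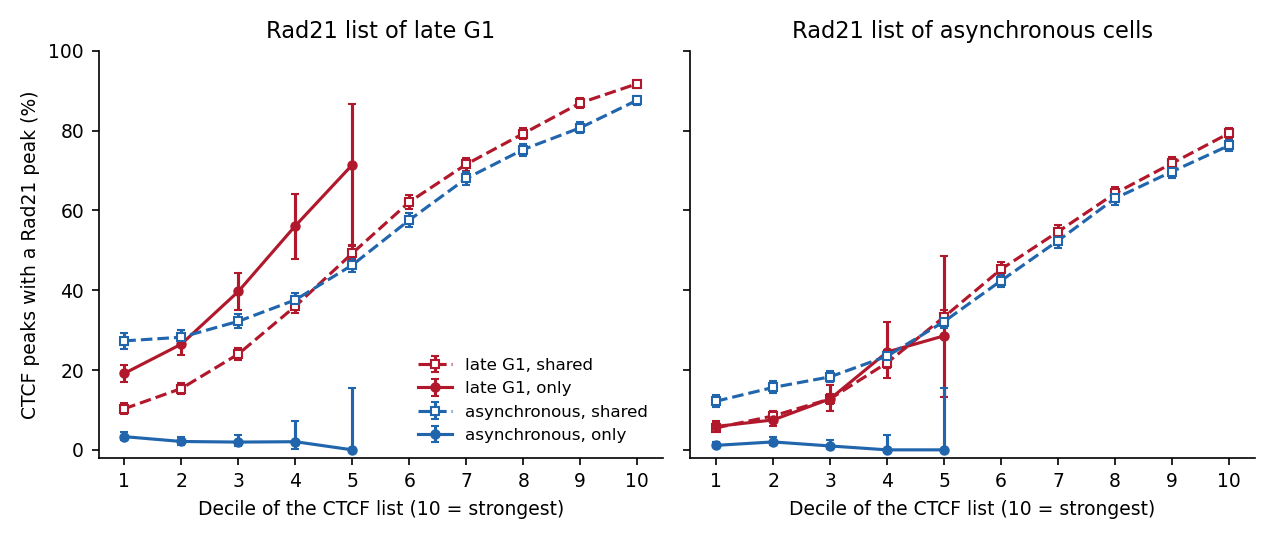
Percentage of CTCF peaks with a Rad21 peak of late G1 (left) or of asynchronous cells (right) by decile of CTCF fold enrichment (10 = strongest), for shared and unshared peaks of each CTCF list, with exact 95% intervals; unshared classes are drawn to decile 5. On the left, late-G1-only peaks lie above shared late-G1 peaks, on the right the 2 run close together, and asynchronous-only peaks lie near 0 in both panels.

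Rad21 at the 813 late-G1-only sites was weak and less often called at other stages than at shared sites. Of these sites 55.7% had a Rad21 peak in mid G1, 6.15% in early G1, 3.32% in ana/telophase and none in pro-metaphase. Over all late-G1 CTCF peaks with late-G1 Rad21 the shares were 80.1%, 47.4%, 38.2% and 2.60%. Asynchronous Rad21 was called at 28.2% of the 813 (229 sites), where asynchronous cells had no called CTCF peak. Over all late-G1 CTCF peaks with late-G1 Rad21, asynchronous Rad21 was called at 71.3% (12828 peaks). Of these, 12599 were shared and so did have an asynchronous CTCF peak. The gap was smaller at low CTCF rank: within deciles 1 to 3, mid-G1 Rad21 was at 53.6% of late-G1-only and 57.1% of shared sites with late-G1 Rad21, early-G1 Rad21 at 5.26% and 14.6%, and asynchronous Rad21 at 26.1% and 44.7%. The Rad21 peaks at the 813 sites had a median percentile of 28.5 within the late-G1 Rad21 list, against 54.1 for Rad21 peaks at shared late-G1 CTCF sites. Sites with and without Rad21 also differed in CTCF history. CTCF was called in ana/telophase at 9.84% of late-G1-only sites with Rad21 and at 30.0% of those without, and in mid G1 at 74.3% and 68.3%. Asynchronous-only sites divided in the same direction, though few carried Rad21: CTCF was called in ana/telophase at 21.9% of the 73 with late-G1 Rad21 and at 67.6% of those without. With asynchronous Rad21 the shares were 29.7% of 37 sites and 66.9%. The strongest asynchronous-only site with asynchronous Rad21, chr5:99677584-99677780, had a fold enrichment of 11.9, was called in all 4 earlier stages and lay 369373 bp from the nearest late-G1 CTCF peak.

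Late-G1 contact maps gave a further readout. The deposited Hi-C calls for late G1 held 11340 loops with 20272 distinct anchors, 13553 domain boundaries and 1742 stripe anchors, where a stripe is a line of contacts running from one site. Late-G1 loop anchors overlapped 54.7% of all late-G1 and 54.1% of all asynchronous CTCF peaks. They overlapped 40.7% (39.0 to 42.5) of late-G1-only, 32.5% (30.7 to 34.3) of asynchronous-only and 56.1% of shared late-G1 peaks. At matched rank the late-G1-only share was close to that of shared peaks, 42.5% and 42.3% in decile 1, 38.5% and 39.7% in decile 2 and 40.1% and 40.9% in decile 3. It was lower in decile 4, at 41.3% (33.5 to 49.5) and 45.7%, and in decile 5, at 39.3% (21.5 to 59.4) and 50.6%, where the wide intervals held the shared value. Asynchronous-only peaks stayed below shared ones, at 36.6% and 45.7% in decile 1 and at 20.4% and 43.9% in decile 3.

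Most of these anchors also held a shared peak. Of the 1646 anchors with a late-G1-only peak, 76.2% had a shared peak as well, and at 391 the late-G1-only peak was the sole CTCF of the late-G1 list. Late-G1 Rad21 was present at 184 of the 391 (47.1%). Of the 1210 anchors with an asynchronous-only peak, 81.6% also held a shared peak, and 33 of the 223 others (14.8%) had late-G1 Rad21. By comparison, 66.5% of all anchors and 88.5% of anchors with a shared late-G1 peak held late-G1 Rad21, and 5.13% of anchors with no late-G1 CTCF peak did. Loop anchors had a median width of 20 kb, so an anchor can hold several peaks, and the Hi-C data had no asynchronous counterpart here.

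Domain boundaries and stripes gave smaller differences. A boundary lay within 20 kb of 31.3% of late-G1 and 31.1% of asynchronous peaks, and of 25.8% of late-G1-only, 22.7% of asynchronous-only and 31.9% of shared peaks. Stripe anchors overlapped 8.89% and 8.83% of the whole lists, and 4.92% of late-G1-only, 3.61% of asynchronous-only and 9.28% of shared late-G1 peaks. Both measures were lower at unshared peaks than at shared ones over the whole lists. At matched rank in deciles 1 to 4, boundaries lay about as often near late-G1-only as near shared peaks. The shares were 24.9% and 24.2% in decile 1, 26.0% and 24.4% in decile 2, 23.8% and 25.9% in decile 3 and 32.3% and 28.5% in decile 4. In decile 5 they were 57.1% (37.2 to 75.5, 16 of 28 peaks) and 31.8%, so the late-G1-only share was higher there. Asynchronous-only peaks were lower than shared ones in each of deciles 1 to 5, for example at 22.9% and 25.4% in decile 1 and 19.7% and 27.8% in decile 3. In decile 4 the shares were close, at 27.6% (19.0 to 37.5) and 28.5%. In decile 5 they were 18.2% (5.19 to 40.3, 4 of 22 peaks) and 31.6%, where the wide interval held the shared value.

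Shared sites were compared by rank over the 30234 pairs in which 1 late-G1 peak matched 1 asynchronous peak and no other. Percentiles of pairs were ranked anew among these paired peaks of each list, so they differ from the fold percentile over the whole list. Over these pairs Spearman's correlation was 0.81 for fold enrichment and 0.83 for width, a description across sites that share libraries and base composition. Summits lay a median of 11 bp apart, and 98.0% were within 50 bp. The strongest pairs stood at the top of both lists: chr5:120552752-120553229 had a fold enrichment of 71.1 in late G1, and its partner chr5:120552710-120553369 had 81.1 in asynchronous cells. The next were chr5:130230636-130231120, at 70.5 and 79.9, and chr2:29932881-29933387, at 69.8 and 78.0. All 3 were present in all 4 earlier stages and carried late-G1 Rad21. Asynchronous Rad21 was called at the pair on chromosome 2 but not at those on chromosome 5.

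Asynchronous peaks were the wider ones. In 73.3% of pairs the asynchronous peak was wider, with medians of 319 bp in asynchronous cells and 292 bp in late G1. The gap grew with strength: at late-G1 percentiles of 0 to 25 among the pairs, the medians were 231 and 210 bp. At 75 to 100 they were 470 and 363 bp. The lists were called separately and their reads are unknown, so the part of depth in this difference was not tested.

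Rank among the paired peaks of a list moved for some shared sites. Between the lists the median absolute difference was 10.7 points, and 14333 pairs (47.4%) were within 10 points. At least 20 points higher in late G1 were 3717 pairs (12.3%), and 3656 (12.1%) were at least 20 points higher in asynchronous cells. These limits were chosen after the values had been seen, and ranks of separately called lists do not measure a change in binding.

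Pairs higher in late G1 and pairs higher in asynchronous cells differed in the same direction as the unshared classes. This held for Rad21 of late G1 and asynchronous cells and for CTCF of pro-metaphase and ana/telophase. The levels did not match. Late-G1 Rad21 was low at late-G1-only peaks (27.2% against 53.7% of the list) but high at pairs higher in late G1. Pro-metaphase CTCF was low at asynchronous-only peaks (7.22% against 34.6% of the list) but high at pairs higher in asynchronous cells. Late-G1 Rad21 overlapped 56.3% of all pairs, 77.4% (76.0 to 78.7) of those higher in late G1, 55.1% of those within 10 points and 44.4% of those higher in asynchronous cells. Asynchronous Rad21, at 42.8% of all pairs, gave 55.1%, 42.0% and 38.9%. Pro-metaphase CTCF, at 36.9% of all pairs, ran the other way, with 25.2%, 38.3% and 51.1% (49.5 to 52.8). Ana/telophase CTCF, at 88.5% of all pairs, followed pro-metaphase with 82.1%, 87.9% and 97.8%. Pairs that ranked higher in late G1 thus carried Rad21 more often, and pairs that ranked higher in asynchronous cells carried mitotic CTCF more often.

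For late-G1 Rad21 and pro-metaphase CTCF the order held in each of 4 ranges of the pair's mean percentile. At 0 to 25, late-G1 Rad21 overlapped 52.9% of pairs higher in late G1, 19.5% of close pairs and 9.26% of pairs higher in asynchronous cells. Pro-metaphase CTCF was at 0.672%, 4.61% and 17.7% there. At 50 to 75, Rad21 stood at 87.1%, 69.2% and 64.8%, and pro-metaphase CTCF at 36.0%, 40.6% and 66.7%. At 75 to 100, Rad21 was at 94.5%, 87.4% and 78.4% and pro-metaphase CTCF at 77.2%, 83.9% and 94.0%. Asynchronous Rad21 kept the order in 3 of the 4 ranges, and at 50 to 75 it was at 67.0%, 53.3% and 57.5%, lowest in the close pairs. Loop anchors, at 56% of all pairs, overlapped 62.1% of pairs higher in late G1 and 54.3% of pairs higher in asynchronous cells.

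**Figure D4:**
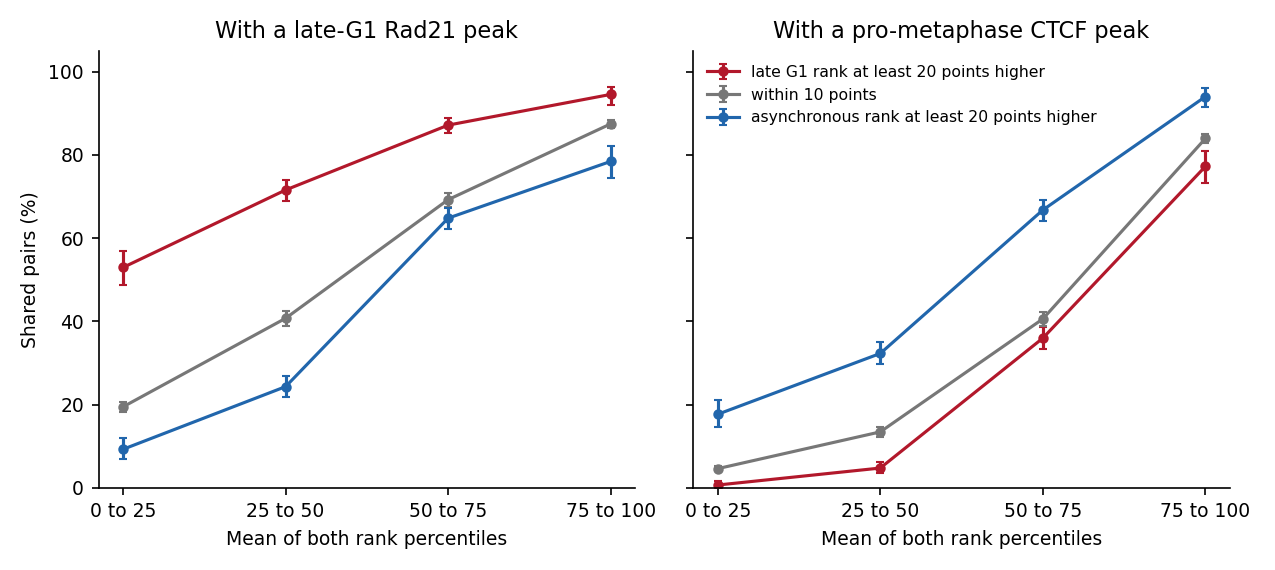
One-to-one pairs of CTCF peaks, split by the difference in fold rank between late G1 and asynchronous cells, as percentiles among paired peaks only. Shown is the percentage of pairs with either peak on late-G1 Rad21 or pro-metaphase CTCF in each range of the mean percentile, with exact 95% intervals. Rad21 is highest where late G1 ranks at least 20 points higher (77.4% over all ranges), and pro-metaphase CTCF where asynchronous cells do (51.1%).

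Unshared peaks were spread over all 20 chromosomes. Late-G1-only shares ran from 7.43% on chromosome 5 to 11.1% on chromosome 14, and asynchronous-only shares from 6.03% on chromosome 18 to 11.1% on chromosome 5. Chromosome 5 thus had the lowest late-G1-only and the highest asynchronous-only share. In 228 windows of 10 Mb with at least 50 asynchronous peaks, the median asynchronous-only share was 7.73%, with the middle 50% between 5.78% and 10.0%, and the median late-G1-only share 8.60%.

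The 2 highest asynchronous-only shares were both on distal chromosome 5. In chr5:120000001-130000000, 69 of 327 asynchronous peaks (21.1%) were unshared, against 11 of 269 late-G1 peaks (4.09%). At the end of the chromosome, from 150000001 on, 26 of 83 asynchronous peaks (31.3%) and 3 of 60 late-G1 peaks (5.00%) were unshared. The 2 windows between them were lower, at 27 of 296 (9.12%) and 44 of 344 (12.8%), the former inside the middle 50% of all windows. Windows elsewhere came close to the lower of the 2, with 20.0% at chrX:160000001-170000000 and 19.0% at chr12:1-10000000. From 120 Mb to the end, 166 of 1050 asynchronous peaks (15.8%, 13.7 to 18.2) were asynchronous-only, against 7.31% (5.96 to 8.85) on the rest of chromosome 5 and 8.14% on the other chromosomes. Of the 166 peaks, 83.7% had been called in ana/telophase, 18.1% in pro-metaphase and 47.0% in mid G1, against 65.6%, 6.30% and 58.6% of asynchronous-only peaks on the other chromosomes. None of the 166 carried late-G1 or asynchronous Rad21, against 2.79% and 1.40% there, both low shares. This stretch was picked after its values were seen, and whether copy number or depth there differed between the groups was not tested. Without it the asynchronous-only median percentile was 10.2, equal after rounding to the value with it.

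**Figure D5:**
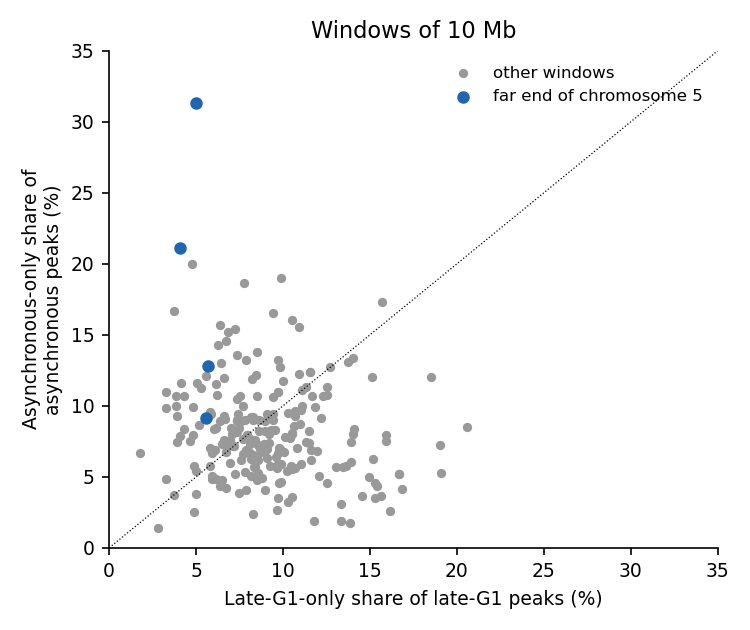
Percentage of asynchronous-only against late-G1-only CTCF peaks in 228 windows of 10 Mb, with windows of chromosome 5 from 120 Mb in blue and a dotted line where the 2 are equal. Most windows lie near the medians of 7.73% and 8.60%, and the highest asynchronous-only shares, 31.3% and 21.1%, are both in that stretch.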

How the data were processed

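CTCF and Rad21 ChIP-seq and late-G1 Hi-C of G1E-ER4 cells were used. The submitters' processing notes name build mm9, MACS2 2.1.0, bedtools 2.27.1, SAMtools 1.7 and Bowtie 0.12.7 for ChIP-seq, and HiC-Pro with Bowtie2 for Hi-C. Replicates were merged and downsampled, per the deposited peak names, which gives 1 list per target and stage. The authors deposited for each peak a fold enrichment (a ratio), a −log10 p, a −log10 q and a summit offset. The smallest deposited −log10 p was 8.17 in the late-G1 and 8.35 in the asynchronous CTCF list. Late-G1 stripes carry a strength ratio from the authors, of which only the anchors were used. The sources used here give neither the control behind the fold nor the callers of loops, domains and stripes. Depth per sample is unknown.

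Overlaps, within-list ranks and exact 95% intervals were obtained in SciPy 1.17.1, pandas 2.3.3 and NumPy 2.4.6 under Python 3.11.15, and Matplotlib 3.10.9 drew the plots. Interval functions were tested on simulated data against bedtools 2.31.1 and brute force and passed 5 of 5 tests. Intervals of medians come from order statistics. Peaks named are, by rule, the 5 strongest of each unshared class, the 3 strongest found in no other CTCF list, in every earlier list, or with Rad21 of the own group, the 2 widest, and the 3 strongest pairs; not all are printed. Alternatives changed the overlap rule, the fold or q limit, the list length and the Rad21 list. Members and lists were chosen with earlier results of these data known. Genes and sequences were not used here, since the annotation at hand belongs to another build.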

Additional observations from a re-analysis of the deposited data

How the results depend on the processing

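The order of the 2 unshared classes in Rad21 and in earlier stages held in every setting run, whereas that of their counts did not. Under each of the 7 changes of matching or of the CTCF lists, Rad21 of late G1 and of asynchronous cells was more frequent at late-G1-only peaks. Under each of them CTCF of pro-metaphase, ana/telophase and early G1 was more frequent at asynchronous-only peaks, and CTCF of mid G1 at late-G1-only peaks. No paired analysis was possible because each list pools its replicates, and leaving out a replicate was not run for the same reason. Values below come in the order late G1, then asynchronous, where 2 are given.

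With at least 50% of both peaks covered, shared shares were 89.1% and 90.0%, median percentiles of unshared peaks 13.5 and 12.7, shares in an earlier stage 83.2% and 88.6%, and shares with Rad21 of the own group 33.5% and 10.1%; late-G1-only peaks in pro-metaphase rose from 0.100% to 12.8%. With summits within 100 bp, 90.5% of late-G1 peaks were shared, 2.00% of asynchronous-only peaks had asynchronous Rad21, and 1.82% of late-G1-only peaks were in pro-metaphase. With peaks up to 250 bp apart matched, 92.0% of asynchronous peaks were shared and 88.4% of asynchronous-only peaks were in an earlier stage. With both lists limited to a fold enrichment of at least 10, shared shares were 92.2% and 87.8%, earlier-stage shares 97.7% and 98.5%, Rad21 shares 43.4% and 6.14%, and the asynchronous-only median percentile 12.0. With both limited to a −log10 q of at least 20 the same values were 93.1% and 89.5%, 95.4% and 96.7%, 38.1% and 2.42%, and 11.6. The percentiles 12.0 and 11.6 are ranks within the limited lists and do not compare with those over the whole lists. The last 2 settings left 2081 and 1990 late-G1-only and 3404 and 3139 asynchronous-only peaks, so the order of the 2 counts reversed, as it also did for the next setting and for lists of equal length (2861 and 2971). Peaks with a fold of at least 10 looked up in the whole other list left 624 and 860 unshared peaks, with 97.7% and 96.9% shared, median percentiles of 26.0 and 21.2, earlier-stage shares of 94.2% and 95.7%, and late-G1 Rad21 at 45.5% of late-G1-only peaks. Asynchronous Rad21 at asynchronous-only peaks, 1.28%, was there close to the main value. With lists of equal length 91.0% of asynchronous peaks were shared. With the other group's Rad21 list the shares were 8.63% and 2.64%. Chosen after seeing the data, Rad21 lists of equal length gave 13.7% of late-G1-only peaks. Leaving out chromosome 5 from 120 Mb gave an asynchronous-only median percentile of 10.2, equal after rounding to the main value. The causes of these shifts were not tested. Depth is unknown, so sites near the calling threshold, where most unshared peaks lie, cannot be assigned to one group with a known error.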
